A study of Mus musculus with 8 samples.

Results

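The immediate early genes described here are 10 genes, the transcription factor genes Jun, Junb, Jund, Fos, Fosb, Egr1, Atf3, Ier2 and Klf6 and the phosphatase gene Dusp1. They were chosen by name, and every probe set whose single annotated gene symbol was one of them was kept. This gave 13 probe sets for all 10 genes, of 18443 probe sets measured and 10401 genes named. Jun had 2 probe sets, Klf6 had 3 and each of the others had 1. The probe sets of Jun, and likewise those of Klf6, report on the same gene and are not replicates.

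Transcripts were measured in enterocytes, the absorptive epithelial cells, isolated from the small intestine of male C57BL/6 mice aged 2.5 to 3.0 months on a standard diet. IE-Cpr-null mice, in which the intestinal epithelium is without the cytochrome P450 reductase Cpr, were set against wild-type (WT) littermates, and no treatment is labelled for either. The reductase passes electrons to the microsomal P450 enzymes. The sources used here do not name the promoter that drives the deletion, and the targeted transcript is not analysed here. Each genotype had 4 arrays, each carrying RNA pooled from 2 mice, so that errors measured the spread between pools.

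Immediate early genes are switched on within minutes of a growth signal, stress or injury, without new protein synthesis. Their promoters are read by serum response factor with its ternary complex partners and by CREB and ATF proteins, downstream of MAP kinases. Jun and Fos proteins pair through leucine zippers to form the AP-1 transcription factor, and Dusp1 removes phosphate from MAP kinases and so limits the response. In intestine, AP-1 and Egr1 are induced by growth factors, cytokines and mechanical or chemical stress, and tissue dissociation is also known to induce these genes.

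All values below are on the log2 scale, with 0 as the WT median, since the deposited table was centred there in every probe set. For a probe set the middle pair of WT values therefore mirror each other around 0, and no expression level is known. Differences are IE-Cpr-null minus WT, each over 4 and 4 pools. Tests are limma's, with p adjusted over all 18443 probe sets (Benjamini-Hochberg) and a threshold of 0.05, and intervals are 95% confidence intervals for the difference.

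No immediate early probe set passed the threshold. All 13 had a higher mean in IE-Cpr-null enterocytes, by 0.036 to 0.66 with a median of 0.21, against a median of 0.016 over all probe sets, of which 57.5% had a higher and 42.5% a lower IE-Cpr-null mean. Jun stood above WT on every IE-Cpr-null array in both of its probe sets. Egr1 and Atf3 had the largest differences in mean but overlapped between genotypes, and Fos and Klf6 had the smallest.

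Over the table as a whole, 0.0163% of probe sets were called higher and 0.00542% lower in limma, against 0 of 13 members (adjusted p from 0.251 to 0.917). At an unadjusted p under 0.05, 4 of the 13 were higher and 0 lower, namely both Jun probe sets, Dusp1 and Ier2, beside 2.92% higher and 4.47% lower over all probe sets. The genotypes did not overlap in 2 of the 13, both for Jun and both higher, beside 1.64% of all probe sets higher and 2.47% lower. With probe sets averaged per gene, this was 1 of 10 genes, beside 1.85% of 10401 genes.

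**Figure D1:**
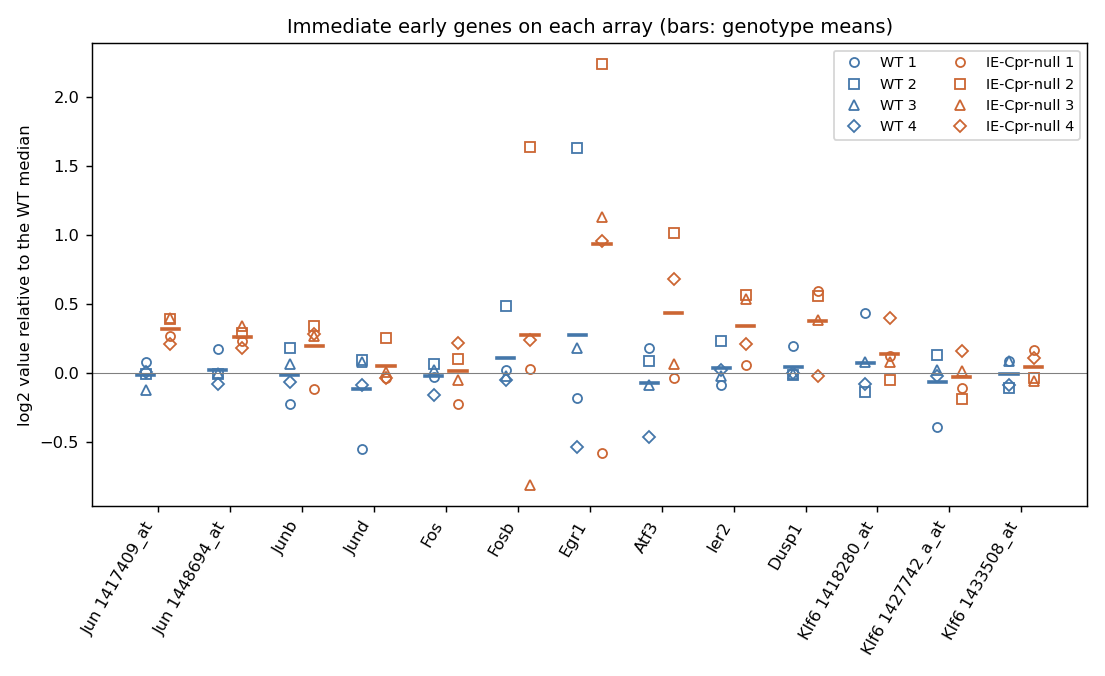
Log2 value relative to the WT median (vertical axis) of each immediate early probe set on each of the 4 WT arrays (blue) and 4 IE-Cpr-null arrays (orange), with a symbol for each replicate number and bars for genotype means. The Jun points of the genotypes do not overlap, whereas Egr1 runs from -0.54 to 1.63 in WT and from -0.57 to 2.24 in IE-Cpr-null.

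Jun encodes the c-Jun subunit of AP-1, which can pair with itself, with Fos proteins or with ATF proteins. In its first probe set (1417409_at) the WT arrays 1 to 4 read 0.080, -0.0062, -0.13 and 0.0062, and the IE-Cpr-null arrays 1 to 4 read 0.27, 0.39, 0.40 and 0.21. The lowest IE-Cpr-null pool thus lay above the highest WT pool. The difference was 0.33 (SE 0.062, interval 0.19 to 0.48, 1.26-fold) and missed the threshold in limma (unadjusted p = 0.000877, adjusted p = 0.251).

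The second Jun probe set (1448694_at) read 0.18, -0.0033, 0.0033 and -0.077 on the WT arrays and 0.23, 0.29, 0.34 and 0.18 on the IE-Cpr-null arrays. The groups were again separate, but only just, with WT 1 and IE-Cpr-null 4 next to each other. The difference was 0.24 (SE 0.064, interval 0.088 to 0.38, 1.18-fold, limma adjusted p = 0.388). Both Jun probe sets ranked IE-Cpr-null 3 highest and IE-Cpr-null 4 lowest within their genotype.

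Junb and Jund encode the other Jun proteins, of which JunB often opposes c-Jun and JunD is expressed more steadily in many cells. Junb read -0.23, 0.18, 0.064 and -0.064 on WT 1 to 4, and -0.11, 0.34, 0.27 and 0.29 on IE-Cpr-null 1 to 4. IE-Cpr-null 1 fell inside the WT range and the other IE-Cpr-null pools above it (difference 0.21, SE 0.12, interval -0.083 to 0.50, limma adjusted p = 0.823). Jund read -0.55, 0.094, 0.082 and -0.082 on WT 1 to 4, and -0.034, 0.26, 0.010 and -0.037 on IE-Cpr-null 1 to 4. WT 1 was the low array and IE-Cpr-null 2 the high one, and the other values of the genotypes were mixed (difference 0.16, SE 0.15, interval -0.19 to 0.52).

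Fos, which encodes the c-Fos partner of Jun proteins, overlapped between the genotypes. It read -0.026, 0.067, 0.026 and -0.16 on WT 1 to 4, and -0.22, 0.11, -0.047 and 0.22 on IE-Cpr-null 1 to 4, with both genotypes on each side of 0. Its difference was 0.036 (SE 0.099, interval -0.20 to 0.27, limma adjusted p = 0.897). Fosb, which encodes the related FosB, read 0.020, 0.48, -0.020 and -0.048 on WT 1 to 4, and 0.031, 1.64, -0.81 and 0.24 on IE-Cpr-null 1 to 4. The IE-Cpr-null pools held both the highest and the lowest Fosb value of the series, with an SD of 1.02 against 0.25 in WT (difference 0.16, SE 0.47, interval -0.93 to 1.25).

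The promoters of Jun, Fos and Dusp1 are shown because Jun and Dusp1 were among the members higher at an unadjusted p under 0.05, while Fos, their usual companion, was not. Each sequence is the 250 bases before the gene's start from RefSeq, on the gene's own strand and of mouse build GRCm38.p6. The Jun sequence is chr4:95052223-95052472 (minus strand), with capitals for TGACATCA, the AP-1-like element of the Jun promoter. The Fos sequence is chr12:85473640-85473889 (plus strand), with capitals for TGACG, the core of a cyclic AMP response element, and for TATAAA, the TATA box. The Dusp1 sequence is chr17:26508473-26508722 (minus strand), with capitals for the whole response element TGACGTCA.
Jun: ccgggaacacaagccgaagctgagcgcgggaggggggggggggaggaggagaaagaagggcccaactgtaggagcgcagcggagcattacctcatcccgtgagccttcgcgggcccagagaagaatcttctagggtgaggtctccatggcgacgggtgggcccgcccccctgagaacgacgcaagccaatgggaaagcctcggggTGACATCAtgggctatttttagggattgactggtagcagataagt
Fos: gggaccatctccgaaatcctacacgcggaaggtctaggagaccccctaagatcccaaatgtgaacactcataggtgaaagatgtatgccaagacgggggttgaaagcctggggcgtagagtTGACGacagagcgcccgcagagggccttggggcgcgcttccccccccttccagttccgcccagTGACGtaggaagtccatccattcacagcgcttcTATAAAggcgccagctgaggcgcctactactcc
Dusp1: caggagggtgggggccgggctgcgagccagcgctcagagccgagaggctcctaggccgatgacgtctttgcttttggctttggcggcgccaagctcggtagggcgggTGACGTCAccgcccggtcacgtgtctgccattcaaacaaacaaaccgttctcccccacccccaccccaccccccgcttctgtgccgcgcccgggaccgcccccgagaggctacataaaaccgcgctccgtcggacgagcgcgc

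Promoters of 8 of the 10 genes, all but Egr1 and Ier2, were matched in RefSeq. The window ran from 250 bases before to 50 after the start, and both strands were searched. TGACATCA began 45 bases before the Jun start and 119 before that of Klf6, and was held by 3.62% of 32851 promoters. TGACGTCA was in 1 of the 8, that of Dusp1, 143 bases before the start, against 1.79% of all. TGACG, which also lies within TGACGTCA, was in 5 of the 8, including Fos at 129 and 66 bases before the start, against 20.8% of all. TATAAA was in 2 of the 8, Fos at 33 bases before the start and Junb at its start, against 13.6%. The AP-1 motif TGANTCA was in 0 of the 8 (7.81% of all), the serum response factor's CArG box in 0 (1.63%), the Egr motif GCGNGGGCG in 1, that of Fosb (5.55%), and the GC box GGGCGG in 6 (35.7%). Sites outside the window, and any in Egr1 and Ier2, were not searched, so a 0 does not mean that a gene lacks the motif. These are matches of letters and say nothing of whether a factor was bound.

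Egr1, a zinc finger factor that is among the fastest induced of these genes, varied most between pools. It read -0.18, 1.63, 0.18 and -0.54 on WT 1 to 4, and -0.57, 2.24, 1.13 and 0.95 on IE-Cpr-null 1 to 4. IE-Cpr-null 2, 3 and 4 and WT 2 were high, while IE-Cpr-null 1 was the lowest array of the series. The difference was 0.66 (SE 0.67, interval -0.89 to 2.22, 1.58-fold, limma adjusted p = 0.860). Without IE-Cpr-null 1 and WT 2, the arrays rich in muscle transcripts, it was 1.62 (SE 0.38, adjusted p = 0.323), and without IE-Cpr-null 2 and 3, rich in hepatocyte transcripts, it was -0.083 (SE 0.72). With each array left out in turn it ran from 0.23, without IE-Cpr-null 2, to 1.17, without IE-Cpr-null 1.

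Atf3 encodes a stress-induced member of the ATF family that pairs with Jun proteins. It read 0.18, 0.087, -0.087 and -0.46 on WT 1 to 4, and -0.033, 1.02, 0.065 and 0.68 on IE-Cpr-null 1 to 4. IE-Cpr-null 2 and 4 lay above every WT array and the other IE-Cpr-null pools inside the WT range. The difference was 0.50 (SE 0.26, interval -0.10 to 1.11, 1.42-fold, limma adjusted p = 0.764).

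Ier2, a small nuclear protein gene of the first wave of induction, read -0.089, 0.24, -0.022 and 0.022 on WT 1 to 4, and 0.062, 0.57, 0.53 and 0.21 on IE-Cpr-null 1 to 4. IE-Cpr-null 2 and 3 were above all WT arrays, and WT 2 was above the other IE-Cpr-null pools. Its difference was 0.31 (SE 0.13, interval 0.0051 to 0.61, 1.24-fold, limma unadjusted p = 0.0471, adjusted p = 0.673). Without IE-Cpr-null 2 and 3 the Ier2 difference was 0.10 (SE 0.10).

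Dusp1, the phosphatase that switches off p38, JNK and ERK, read 0.20, -0.011, -0.0041 and 0.0041 on WT 1 to 4, and 0.60, 0.56, 0.39 and -0.018 on IE-Cpr-null 1 to 4. IE-Cpr-null 1, 2 and 3 were above every WT array, and IE-Cpr-null 4 was below them all. The difference was 0.33 (SE 0.14, interval 0.018 to 0.65, 1.26-fold, limma unadjusted p = 0.0410, adjusted p = 0.650). With array weights it was 0.067 (SE 0.13).

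Klf6, a Krüppel-like zinc finger factor, differed little. Its probe sets had differences of 0.062 (SE 0.15), 0.036 (SE 0.12) and 0.051 (SE 0.074), with limma adjusted p from 0.860 to 0.917. They did not agree on single arrays, since WT 1 read 0.44 in 1418280_at, -0.39 in 1427742_a_at and 0.088 in 1433508_at. IE-Cpr-null 4 was above 0 in all 3, at 0.40, 0.16 and 0.11.

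**Figure D2:**
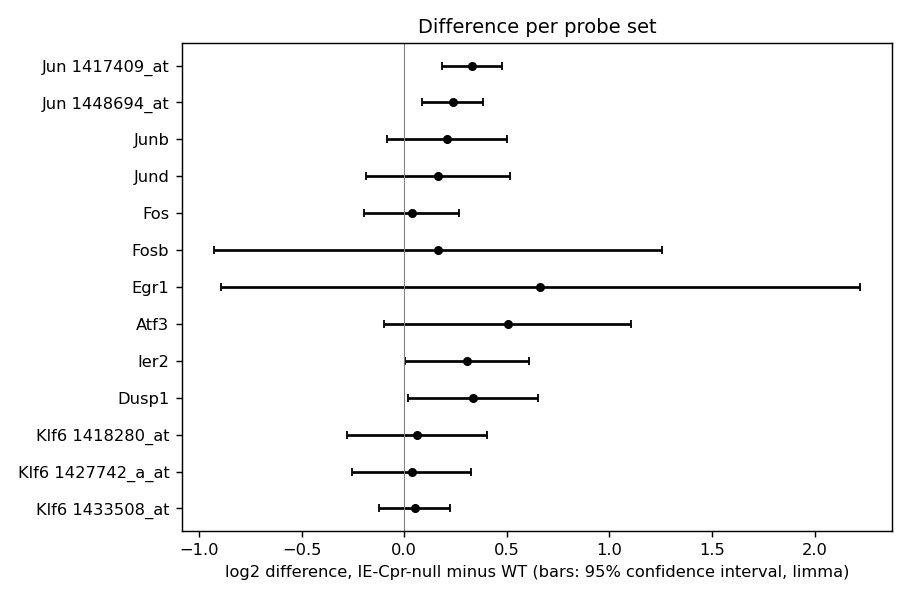
Log2 difference, IE-Cpr-null minus WT (horizontal axis), of each immediate early probe set, with points for the difference and bars for its 95% confidence interval in limma. The intervals of both Jun probe sets, Ier2 and Dusp1 lie above 0 before adjustment, and those of Egr1 (-0.89 to 2.22) and Fosb (-0.93 to 1.25) are the widest.

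The members did not rank the arrays alike, but IE-Cpr-null 2 led most often. It was the highest array in 6 of the 13 probe sets, where it was highest in 12.1% of all probe sets, and the lowest in 0. IE-Cpr-null 1 was highest in 2 of the 13 (Dusp1 and one for Klf6), against 32.8% of all probe sets. The median over the 13 was 0.020, 0.087, 0.022 and -0.077 on the WT arrays and 0.031, 0.34, 0.079 and 0.21 on the IE-Cpr-null arrays, so that IE-Cpr-null 1 and 3 lay within the WT range. The spread between pools was wider in IE-Cpr-null than in WT in 9 of the 13, beside 55.7% of all probe sets. The median SD of a member was 0.18 in WT and 0.19 in IE-Cpr-null, against 0.091 and 0.12 over all probe sets.

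The pools also differed in transcripts of other cells and organs. Of 13 enterocyte markers measured, list means ran from -0.18 to 0.10 in WT and from -0.54 to -0.026 in IE-Cpr-null, with a median difference of -0.015, and 0 passed in limma (0 also at an unadjusted p under 0.05). The leading gene by SD was Akp3, an intestinal alkaline phosphatase gene, which alone read -0.79, -1.70, -7.47 and -0.37 on IE-Cpr-null 1 to 4. The 13 stroma and smooth muscle markers averaged 3.97 on IE-Cpr-null 1 and 1.62 on WT 2 and between -0.43 and 0.17 elsewhere, led by Actg2, the enteric smooth muscle actin (8.89 and 4.48). The 11 hepatocyte markers averaged 5.36 on IE-Cpr-null 2 and 3.33 on IE-Cpr-null 3 and between -0.10 and 0.16 elsewhere. Alb, which encodes albumin, led them (9.32 and 7.91), and also read 1.70 on WT 2 and 1.40 on IE-Cpr-null 4. It lay between -0.041 and 0.039 on the other arrays. The 11 pancreatic acinar markers averaged -4.80 on WT 3, -1.93 on IE-Cpr-null 1 and from -5.05 to -4.94 on IE-Cpr-null 2 to 4, against -0.65 to 1.54 on WT 1, 2 and 4, led by the elastase gene Cela2a. Goblet cell markers averaged -0.054 to 0.027 in WT and -0.28 to -0.075 in IE-Cpr-null, without overlap, and 3 of the 6, led by Clca1, a secreted goblet cell protein gene (-0.49, SE 0.20), were lower without overlap, beside 3% of all genes. Enteroendocrine markers averaged -0.17 to 0.061 in WT and -0.29 to -0.055 in IE-Cpr-null, and 3 of the 8 were lower at an unadjusted p under 0.05, beside 5.42% of all genes, and 2 without overlap. In these and the other 5 marker lists, of lymphocytes, plasma cells, macrophages, endothelium and crypt cells, 0 genes passed. Macrophage and dendritic cell markers had a lower mean in 9 of 10 genes (median -0.36), beside 42.4% of all genes. T cell markers had a higher mean in 9 of 10 (median 0.12), beside 57.6%. Crypt cell markers averaged 1.56 on IE-Cpr-null 1 and -0.81 on IE-Cpr-null 2, and B and plasma cell markers 0.80 on IE-Cpr-null 3. Which markers are absent cannot be said from centred values, and in such preparations a change in cells and a change in RNA per cell cannot be told apart.

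Egr1, Junb, Ier2, Fos and Atf3 were at their lowest of the genotype on muscle-rich IE-Cpr-null 1, where Ier2 (0.062) still lay above 3 of the 4 WT arrays. On muscle-rich WT 2, by contrast, Egr1, Junb, Ier2 and Fos were at their highest in WT, whereas Atf3 was highest on WT 1 (0.18). Egr1, Junb, Ier2 and Atf3 were highest of all on hepatocyte-rich IE-Cpr-null 2, and Fos on IE-Cpr-null 4. IE-Cpr-null 4 had a hepatocyte mean of 0.14, though Alb read 1.40 there. On it Junb (0.29) was above its value on hepatocyte-rich IE-Cpr-null 3 (0.27), and Egr1 read 0.95. On WT 2, where Egr1 read 1.63, Alb read 1.70. Without the muscle-rich arrays 5 of the 13 probe sets did not overlap, those of Jun, Junb, Egr1 and Ier2, all higher. In that setting 6.72% of all probe sets were higher and 6.9% lower without overlap. For Egr1, Junb and Ier2 the arrays left out held the highest WT and the lowest IE-Cpr-null value, so leaving them out favoured separation. Without the hepatocyte-rich arrays, which left 2 IE-Cpr-null pools, 3 did not overlap, those of Jun and 1433508_at of Klf6, beside 4.74% of all higher and 7.53% lower. The median over members was then 0.10, against 0.26 without the muscle-rich arrays. The part of muscle, liver, pancreatic, goblet, enteroendocrine, immune or crypt cell transcripts in these differences was not tested. The Jun differences were 0.35 and 0.24 without the muscle-rich arrays and 0.25 and 0.18 without the hepatocyte-rich arrays.

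**Figure D3:**
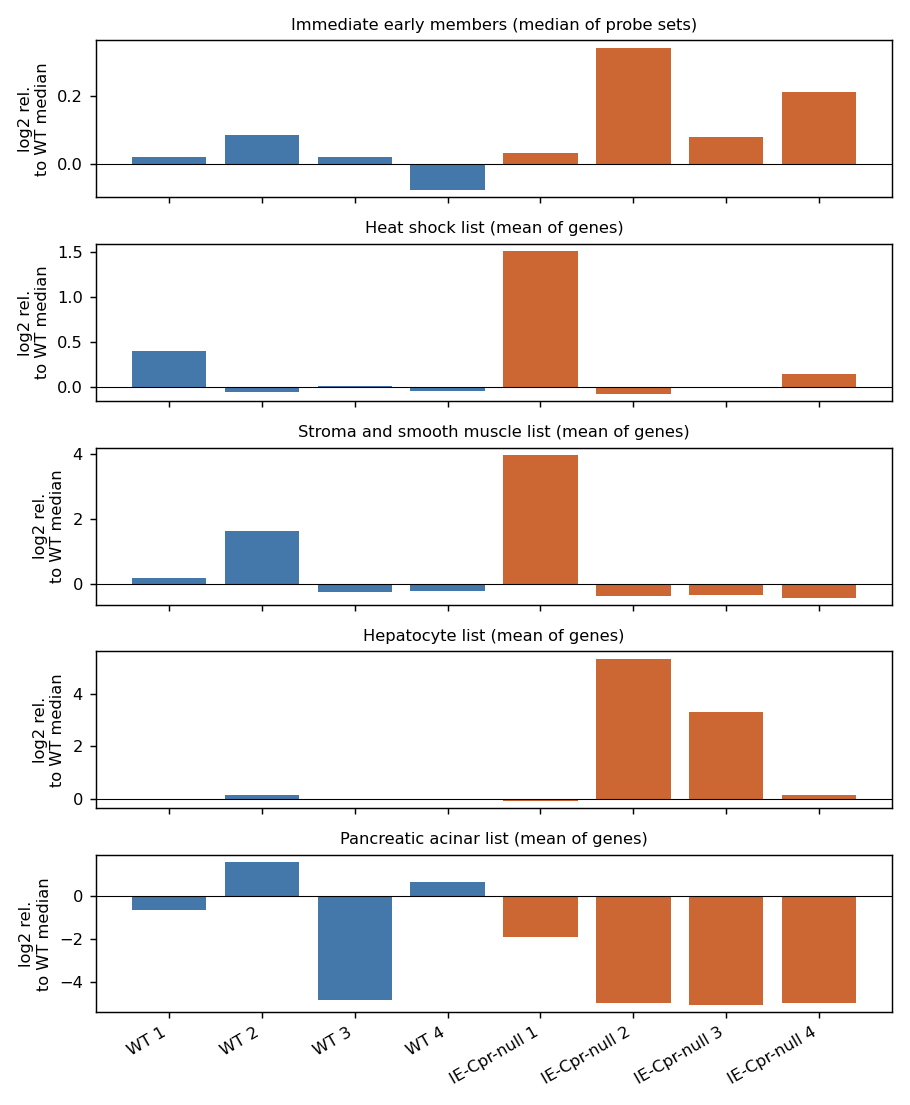
Values on each of the 8 arrays (WT blue, IE-Cpr-null orange), in log2 relative to the WT median, as the median over the 13 immediate early probe sets in the top panel and as the mean over genes of the heat shock, stroma and smooth muscle, hepatocyte and pancreatic acinar lists below. The immediate early median is highest on IE-Cpr-null 2 (0.34), and the heat shock and muscle means on IE-Cpr-null 1 (1.51 and 3.97). Each panel has its own vertical scale.

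By list mean, heat shock genes, which are induced by protein-damaging stress, followed another order of arrays. Their mean over 11 genes was 0.40, -0.057, 0.015 and -0.042 on WT 1 to 4, and 1.51, -0.075, -0.0068 and 0.15 on IE-Cpr-null 1 to 4. It was highest on IE-Cpr-null 1, where Egr1, Junb, Ier2, Fos and Atf3 were at their lowest of the genotype. On the same array Dusp1 (0.60) and Klf6 1433508_at (0.17) were at their highest of the series, and both Jun probe sets lay above every WT array. Hspa1a and Hspa1b, which encode inducible Hsp70 and were chosen after their values were seen, read 4.46 and 3.61 on that array and 1.37 and 1.19 on WT 1. Their near-identical sequences may share signal. Hspb1 (3.83) and Hsph1 (2.65) were also high on IE-Cpr-null 1, and these genes carried most of the mean there. Hsp90aa1, Hspd1, Hspe1 and Bag3 were highest on it too, but at 0.18 to 0.65. Hspa8 was nearly as high on IE-Cpr-null 1 (0.28) as on WT 1 (0.29), its highest array. By contrast, Dnajb1 was highest on WT 1 (0.28) and read 0.051 on IE-Cpr-null 1, where Dnaja1 read -0.043. The median difference of the 11 was 0.13, 7 being higher and 4 lower, and 0 passed over all genes in limma (1 at an unadjusted p under 0.05, Hsp90aa1, 0.30, SE 0.11). Next by smallest p were the co-chaperone gene Dnaja1 (-0.10, SE 0.045) and the constitutive Hspa8 (0.13, SE 0.098).

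Other genes of the response were read as means of all their probe sets over 10401 genes, of which 0.0288% were called higher and 0% lower in limma. None of the genes in the 5 related lists passed (0 in each). At an unadjusted p under 0.05, 3.27% of all genes were higher and 5.42% lower. By mean alone, 57.6% were higher and 42.4% lower, and the groups did not overlap in 1.85% as higher and 3% as lower. Counts by mean below include differences smaller than the median over all genes (0.016), as of Crem (0.013), Nfkbiz (0.0066), Sik1 (0.012) and Mapk8 (0.0061).

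Among the other AP-1 and ATF family genes, Jdp2, which encodes a Jun dimerization partner that represses AP-1 targets, had the largest difference. It read -0.033, 0.026, 0.014 and -0.014 on WT 1 to 4, and 0.77, 1.57, 0.81 and 0.99 on IE-Cpr-null 1 to 4. The WT pools were nearly equal and every IE-Cpr-null pool stood well above them. The difference was 1.04 (SE 0.17, limma adjusted p = 0.134 over genes and 0.190 over probe sets), and it was 0.88 (SE 0.071) without the hepatocyte-rich arrays and 1.14 (SE 0.20) without the muscle-rich ones. Without IE-Cpr-null 2, its highest array, it was 0.86 and passed (limma adjusted p = 0.0153), as it did with array weights (1.02, adjusted p = 0.0110). Those settings called 7 and 741 of all 18443 probe sets, against 4 as reported. In the other 15 alternatives Jdp2 did not pass. In this list 8 of 11 measured genes were higher and 3 lower. Their median was 0.090 beside 0.016 over all genes, and 2 were higher and 0 lower at an unadjusted p under 0.05, Jdp2 and the small Maf gene Mafk (0.14, SE 0.055). Maff, another small Maf gene, differed by 0.32 (SE 0.15).

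Of 16 other immediate early transcription factors 13 were higher and 3 lower, Maff counted again, with a median of 0.062, and 3 were higher and 0 lower at an unadjusted p under 0.05. Klf10, a TGF-beta-induced factor gene, read -0.11, 0.28, 0.11 and -0.21 on WT 1 to 4, and 0.45, 0.65, 0.33 and 0.91 on IE-Cpr-null 1 to 4. Its groups did not overlap (0.57, SE 0.15, limma adjusted p = 0.333). The others were Klf4, a factor of epithelial differentiation (0.16, SE 0.052), and Srf, serum response factor (0.25, SE 0.093).

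Of 28 other early response effectors 19 were higher and 9 lower, with a median of 0.11, and 3 were higher and 1 lower at an unadjusted p under 0.05. Gadd45b, a stress gene, differed by 0.32 (SE 0.095, limma adjusted p = 0.369) with groups that did not overlap, and its relative Gadd45a by 0.29 (SE 0.11). Sgk1, a kinase gene induced by serum and glucocorticoids, had a lower mean in IE-Cpr-null. It read 0.24, -0.67, 0.029 and -0.029 on WT 1 to 4, and -0.61, -1.05, -1.51 and -0.84 on IE-Cpr-null 1 to 4, so that WT 2 lay just below the highest IE-Cpr-null pool (-0.89, SE 0.25, limma adjusted p = 0.346).

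All 8 other dual-specificity phosphatase genes measured had a higher mean in IE-Cpr-null enterocytes, with a median of 0.15, as did Dusp1, and 3 were higher at an unadjusted p under 0.05. The smallest difference was that of Dusp7 (0.015, SE 0.032), beside a median of 0.016 over all genes. Dusp14 (0.54, SE 0.26) was high only on hepatocyte-rich IE-Cpr-null 2 and 3 (0.88 and 1.12), and read 0.044 and 0.026 on IE-Cpr-null 1 and 4. Dusp8, whose product acts on JNK and p38, read -0.29, 0.30, 0.081 and -0.081 on WT 1 to 4, and 0.85, 0.82, 0.54 and 0.37 on IE-Cpr-null 1 to 4. The groups did not overlap (0.64, SE 0.15, limma adjusted p = 0.276). Dusp10, also a JNK and p38 phosphatase gene, differed by 0.24 (SE 0.080) without overlap, and Dusp6, an ERK phosphatase gene, by 0.36 (SE 0.15) with overlap. The 2 Dusp10 probe sets were averaged in that value.

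Of 17 genes of the MAP kinase cascade and the activators of serum response factor, 13 were higher and 4 lower, with a median of 0.038, and 2 were higher and 1 lower at an unadjusted p under 0.05. These were the GTPase gene Nras (0.14, SE 0.050), Srf, counted also above, and Map2k6, a p38 kinase kinase gene (-0.15, SE 0.061).

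**Figure D4:**
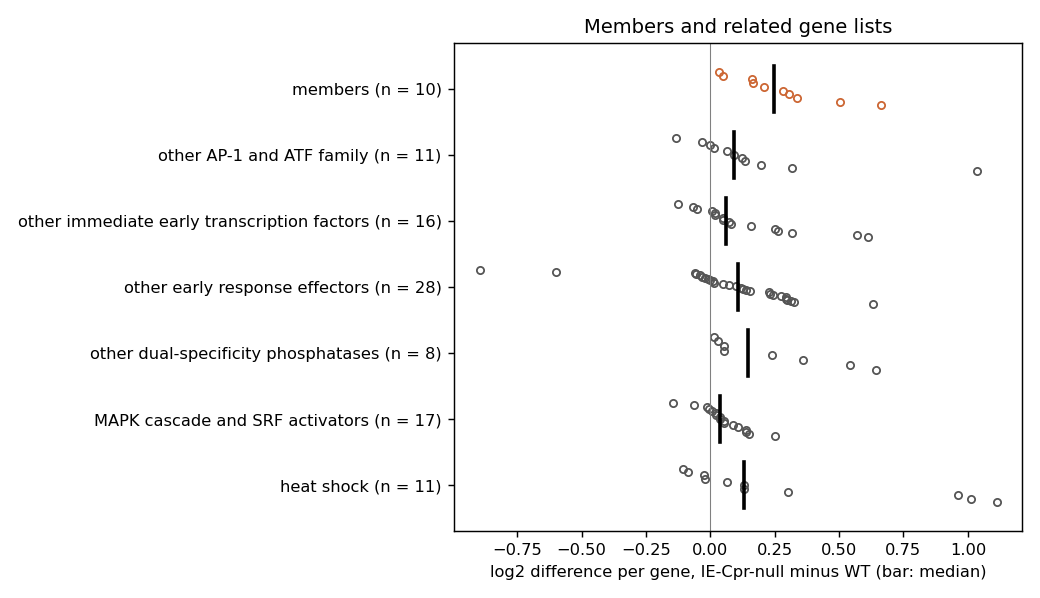
Log2 difference per gene, IE-Cpr-null minus WT (horizontal axis), for the 10 immediate early genes (orange) and the related gene lists (grey), with a point for each gene and a bar for the list median. The rightmost point of the other AP-1 and ATF family is Jdp2 (1.04) and the leftmost of the early response effectors is Sgk1 (-0.89).

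The genes whose profile over the 8 arrays was most like the mean profile of the 10 members, of 10391 other genes ranked, were Gmppb (Pearson r = 0.97), Map3k11 (0.94), Dll1 (0.94), Cystm1 (0.94) and Aldh3b1 (0.94). Spearman's rho was 0.95, 0.93, 0.79, 0.95 and 0.79 in that order. The member mean was -0.050, 0.27, 0.022 and -0.14 on WT 1 to 4, and 0.0028, 0.70, 0.19 and 0.30 on IE-Cpr-null 1 to 4. Being the best of many over 8 arrays, these coefficients describe likeness and carry no test.

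**Figure D5:**
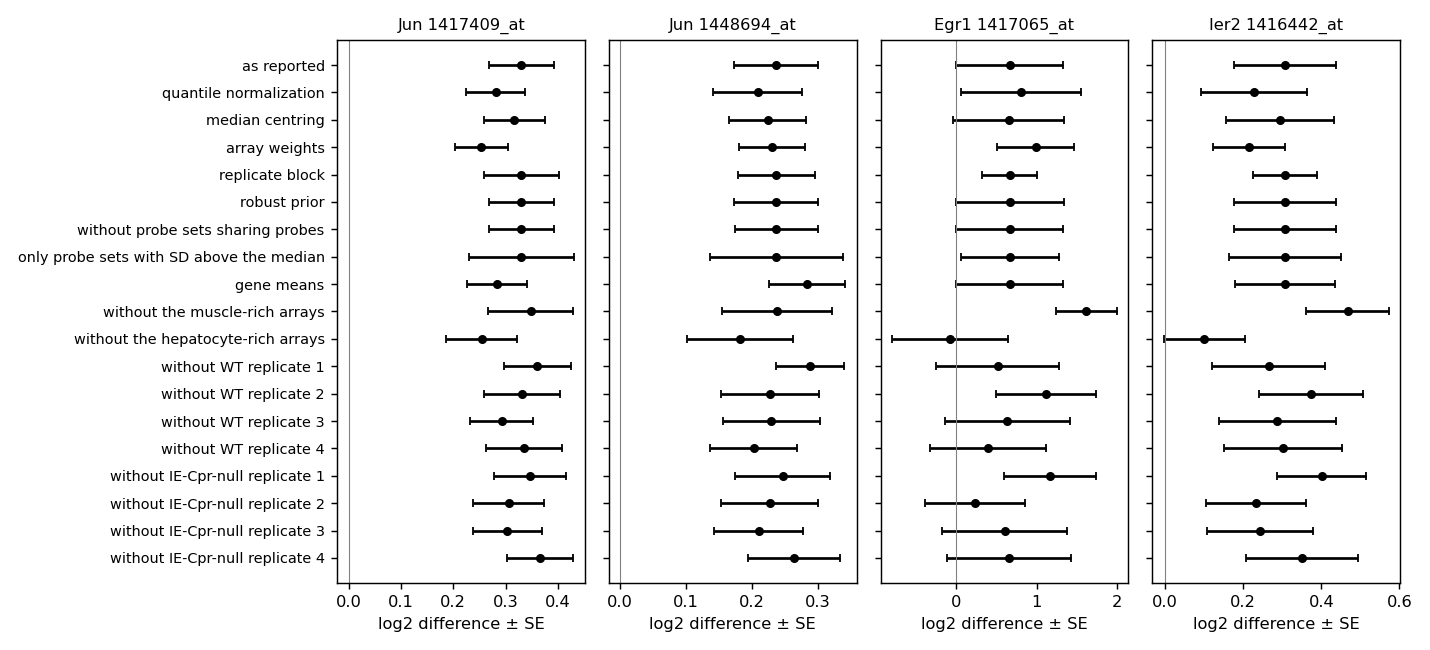
Log2 difference, IE-Cpr-null minus WT, with bars for its SE, of both Jun probe sets, Egr1 and Ier2 (panels) under the reported setting and each alternative (rows). Both Jun probe sets stay above 0 throughout (0.25 to 0.37 and 0.18 to 0.29), whereas Egr1 runs from -0.083 to 1.62. Each panel has its own horizontal scale.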

How the data were processed

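GCRMA is named in the submitters' processing notes, with no version or settings. The deposited table holds log2 values, and the values show that each probe set was also centred on the median of its 4 WT arrays (within 1e-06). No dim probe set could therefore be left out. Sample titles gave the groups and replicate numbers, and the labels give no batch. The members and gene lists were chosen with earlier results of these data known.

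Each probe set was fitted with limma 3.58.1 in R 4.3.3 (lmFit and eBayes, two-sided, 2 group means, no block). Probe sets carried 1 gene symbol in 16689 cases, several in 616 and none in 1138, from the platform annotation. Besides the members, the rule for named genes took the 3 genes of each related list with the smallest unadjusted p, the leading gene of marker lists by SD, and the 5 genes most like the members. Jdp2 settings, Hspa1a, Hspa1b and the other heat shock genes outside this rule, and Dusp7, Dusp14, Crem, Nfkbiz, Sik1 and Mapk8 were chosen after seeing the data. Alternatives were array weights, quantile normalization, centring on each array's median, a robust prior, a block for replicate number, gene means, leaving out some probe sets, and leaving out arrays. The probe sets left out were those that vary little or, in the setting labelled as sharing probes, those whose name ends in _a_at, _s_at or _x_at. The scripts were tested on simulated data.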

Additional observations from a re-analysis of the deposited data

Results flagged for a closer look

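Within a genotype, 4 single values lay apart from the other pools by more than Dixon's 95% limit for 4 samples, of 26 genotype groups examined, where chance flags about 1 in 20 groups. Junb was low on IE-Cpr-null 1, at -0.11 beside 0.27 to 0.34 in the rest of that genotype. Jund was high on IE-Cpr-null 2, at 0.26 against -0.037 to 0.010. Fosb was high on WT 2, at 0.48 against -0.048 to 0.020. Dusp1 was high on WT 1, at 0.20 against -0.011 to 0.0041. WT 2 and IE-Cpr-null 1 are the arrays rich in muscle transcripts and IE-Cpr-null 2 one of those rich in hepatocyte transcripts, and the part of these transcripts in the values was not tested.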

How the results depend on the processing

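The 13 members were recomputed under 18 alternatives. No member passed in 17 of them. With array weights in limma 2 of 13 passed, Jun 1417409_at (0.25, adjusted p = 0.0405) and Atf3 (0.87, adjusted p = 0.0479). In that setting 741 of all 18443 probe sets passed, against 4 as reported, so passing there was not particular to the members. Array weights also gave 0.067 for Dusp1 (unadjusted p = 0.620), 0.062 for Jund, 0.24 for Fos and 0.34 for Klf6 1418280_at. The count over all probe sets, 4 as reported, was 741 with array weights, 1 with quantile normalization, 1 with the replicate block, 7 among probe sets with SD above the median, and from 1 to 16 with each array left out. It was 1 without WT 1, 2 or 4, then 16 without IE-Cpr-null 1 and 7 without IE-Cpr-null 2. The member median stayed between 0.10 and 0.27 and the number of members with a higher IE-Cpr-null mean, counted after seeing the data, was 10 to 13 with each array left out. Members without overlap were 2 of 13 as reported, beside 1.64% of all probe sets higher and 2.47% lower. With gene means they were 1 of 10, beside 1.85% of all genes higher and 3% lower. They were 5 without the muscle-rich arrays (6.72% of all probe sets higher, 6.9% lower) and 3 without the hepatocyte-rich arrays (4.74% and 7.53%). With each array left out they were 2 to 3. No share over all probe sets was computed there, so those counts cannot be set against the reported one. Of 232 member differences recomputed, 10 changed sign, none of a called value. These were Klf6 1418280_at without the muscle-rich arrays (-0.0039) and without WT 2 (-0.0090) or IE-Cpr-null 4 (-0.025), Klf6 1433508_at without the muscle-rich arrays (-0.024), Klf6 1427742_a_at without WT 1 (-0.073) or IE-Cpr-null 4 (-0.027), Egr1 without the hepatocyte-rich arrays (-0.083), Fos without WT 4 (-0.0088) or IE-Cpr-null 4 (-0.032), and Fosb without IE-Cpr-null 2 (-0.29). With each array left out Fos reached 0.11, Fosb 0.53, Klf6 1418280_at 0.18 and Klf6 1427742_a_at 0.10 at the highest, while Jund fell to 0.018 and Junb to 0.14 without WT 1, Atf3 to 0.31 without IE-Cpr-null 2 and Klf6 1433508_at to 0.010 without IE-Cpr-null 1. The cause was not tested. With the replicate block in limma, Jun had adjusted p = 0.428 and 0.458, and no member call changed. The unadjusted p went from 0.137 to 0.0128 for Junb and from 0.0471 to 0.0190 for Ier2. For Jun it rose from 0.000877 and 0.00662 to 0.00966 and 0.0147. Same-numbered arrays deviated together in 2 of 4 pairs (r over 0.1, range -0.058 to 0.26), and 4 of 8 arrays correlated best with their own number. These values cannot settle whether arrays were paired. The labels give no pairing, and none was assumed. Centring hides the signal over background, so what it limits cannot be judged here.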
